A study of Mus musculus with 24 samples.

Results

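The mitochondrial ribosomal protein genes were examined together with Gadd45gip1, the gene that encodes CRIF1. Members were every gene of the expression table whose symbol begins with Mrpl or Mrps followed by a number, plus Gadd45gip1, which gave 79 of 24532 genes. The symbols placed 29 members in the small subunit and 50, Gadd45gip1 included, in the large subunit. RNA-seq was done on liver, inguinal white adipose tissue (iWAT), gastrocnemius muscle (GM) and Hypothalamus of C57BL/6 mice aged 8 weeks on chow, with 3 libraries for each genotype and tissue and 24 libraries in all. LKO mice carried Alb-Cre and Crif1flox/flox, and Ctrl mice carried Crif1flox/flox without Cre, so that both genotypes shared the floxed alleles. The albumin promoter drives Cre in hepatocytes, and the other cells of the liver keep the floxed allele.

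The mitochondrial ribosome translates the few membrane subunits of oxidative phosphorylation that are encoded in mitochondrial DNA, and all of its proteins are encoded in the nucleus and imported. Its small subunit decodes the mRNA, while its large subunit forms peptide bonds and passes the nascent chain through an exit tunnel to the inner membrane. CRIF1 sits at the mouth of that tunnel in the large subunit, and the liver depends on this machinery for the respiratory chain that supports fatty acid oxidation and gluconeogenesis.

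Values were FPKM (fragments scaled by transcript length and by the mapped fragments of the library), and the depth of the libraries ranged from 4.45 to 8.09 gigabases. Each gene was tested within a tissue by limma on log2(FPKM + 1) if it reached 1 FPKM in at least 3 libraries, and a gene was called if its Benjamini-Hochberg adjusted p over all tested genes was below 0.05. All 79 members were tested in each of the 4 tissues. Log2 fold changes are on the log2(FPKM + 1) scale and are LKO minus Ctrl. Defining markers were highest in the labelled tissues. The summed FPKM of 8 hepatocyte markers was 56249 to 82357 in the liver libraries and at most 323.8 elsewhere. That of 5 skeletal muscle markers was at least 89948 in GM and 34.3 to 834 across the iWAT libraries. It was at least 38011 for 5 adipocyte markers in iWAT and at least 1285 for 5 neuron markers in Hypothalamus. Also in Hypothalamus, 5 pituitary markers summed to 87.0 to 129 FPKM in Ctrl and 179 to 702 in LKO, without overlap. In liver, 5 of 5 Kupffer cell markers were called higher in LKO mice (summed FPKM 95.7 to 99.2 in Ctrl and 205 to 305 in LKO), as were 5 of 5 proliferation markers (1.21 to 2.37 in Ctrl and 24.7 to 58.7 in LKO). Of the 8 hepatocyte markers, 1 was called higher and 2 lower. The part of these cell types in the member results below was not tested.

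In liver, Gadd45gip1 fell, and it was the one member called lower with deposited FPKM, TPM, median-ratio scaling and quantile normalization. Its FPKM was 14.6, 12.5 and 13.6 in the Ctrl libraries and 5.40, 2 and 2.51 in the LKO libraries. All 3 LKO values lay below all 3 Ctrl values, and LKO library 1 kept the most transcript. The log2 fold change was -1.84 ± 0.27 (SE, n = 3 per group, limma adjusted p = 0.00357), and -2.16 ± 0.32 with median-ratio scaling. Disruption of this gene in hepatocytes was part of the design. In a bulk tissue, fewer cells of a type and less RNA per cell cannot be told apart, and the transcript that remained was not assigned to hepatocytes or to other cells. Gadd45gip1 lies on the plus strand of chromosome 8 (84832282 to 84835482, mm10).

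**Figure D1:**
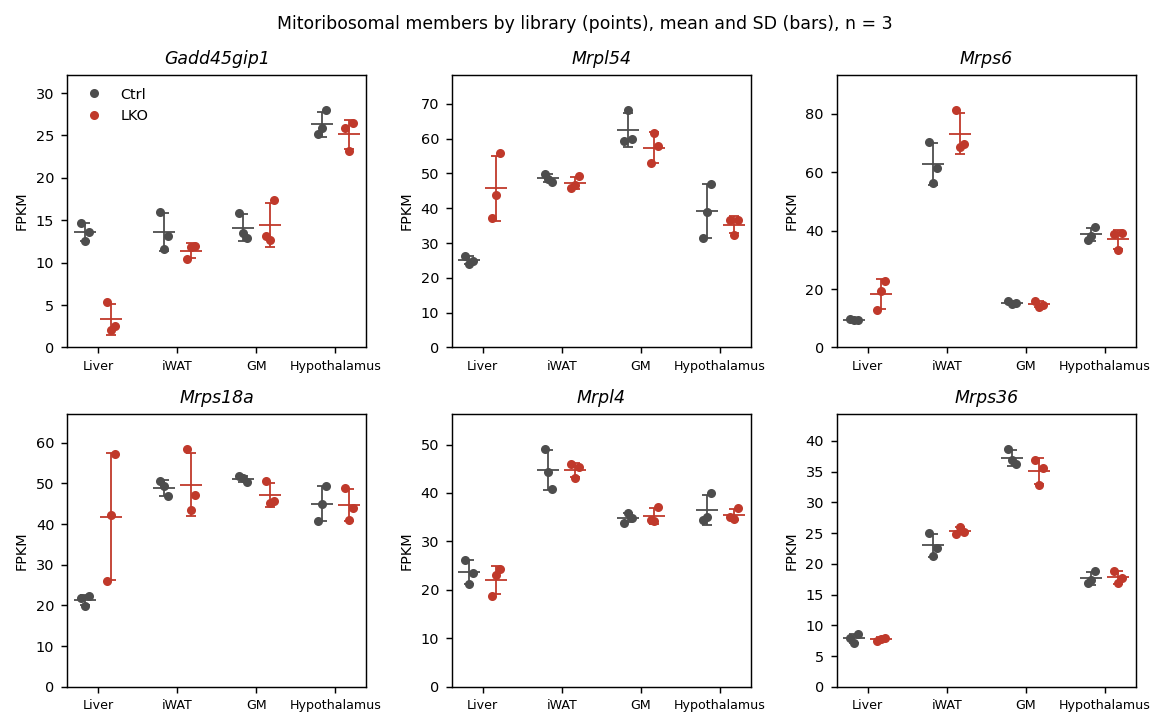
FPKM (vertical axis, linear, from 0) of 6 members in the 3 Ctrl (grey) and 3 LKO (red) libraries of each tissue, with bars for the mean and SD. Gadd45gip1 separates the genotypes in liver, where its LKO values are 5.40, 2 and 2.51 FPKM, and the genotypes overlap in the other tissues.

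The remaining members did not follow Gadd45gip1. On the deposited scale 22 of 79 members were called in liver (27.8%), against 43.8% of the 10956 genes tested. Of these, 21 were higher in LKO mice, where 38.3% of all tested genes were called higher, and the single lower member was Gadd45gip1, where 5.49% of all genes were called lower. With a fold of at least 1.5 in addition, 5 members were called, against 27.4% of tested genes. Groups did not overlap for 38 members, 37 of them higher in LKO, against 61.1% of all tested genes. Each of these shares was below that of the whole table. With deposited TPM this did not hold, since 47 members (59.5%) were called against 58.8% of all genes. Of the 59 members without 50 or more exonic bases shared with a gene on the opposite strand, 20 were called higher and 0 lower.

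The direction of many members depended on how the liver libraries were scaled. Over all tested genes the median change was 0.33 (log2) with deposited FPKM, and that of the members was 0.25, so that 49 of the 79 members lay below the median gene. Without the filter on low values the all-gene median was 0.19, and 30 of the 79 members lay below it. After median-ratio scaling, which sets the typical gene to the same level in each library, the median of all tested genes was -0.01 and that of the members was -0.12. On that scale 11 members were called, 2 higher and 9 lower, against 32.2% of all genes (17% higher and 15.2% lower). With quantile normalization 8 members were called (10.1%, against 30.1% of all genes), 2 higher and 6 lower. The 21 higher calls on the deposited scale are thus relative to a library whose typical gene was also higher, and only Mrpl54, Mrps6 and Gadd45gip1 kept the same call on the deposited, median-ratio and quantile scales. LKO library 1 was the closest to the Ctrl libraries for many members. Among the LKO libraries it had the highest sum of hepatocyte markers (82357 FPKM against 69640 and 56249 in libraries 2 and 3), the lowest of Kupffer cell markers (205 against 225 and 305) and the highest of proliferation markers (58.7 against 24.7 and 25.6). The part of these differences was not tested. Without it, 46 members were called on the deposited scale (58.2%, beside 67.4% of all genes) and 30 (10 higher, 20 lower) with median-ratio scaling (38%, beside 48.9%). Leaving out LKO library 2, Ctrl library 2 or Ctrl library 3 left 2 members called each (2.53%), beside 13.5%, 17.7% and 17.3% of all genes. Without LKO library 3 there were 7 (8.86%, beside 26.5%) and without Ctrl library 1 there were 6 (7.59%, beside 21.6%).

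**Figure D2:**
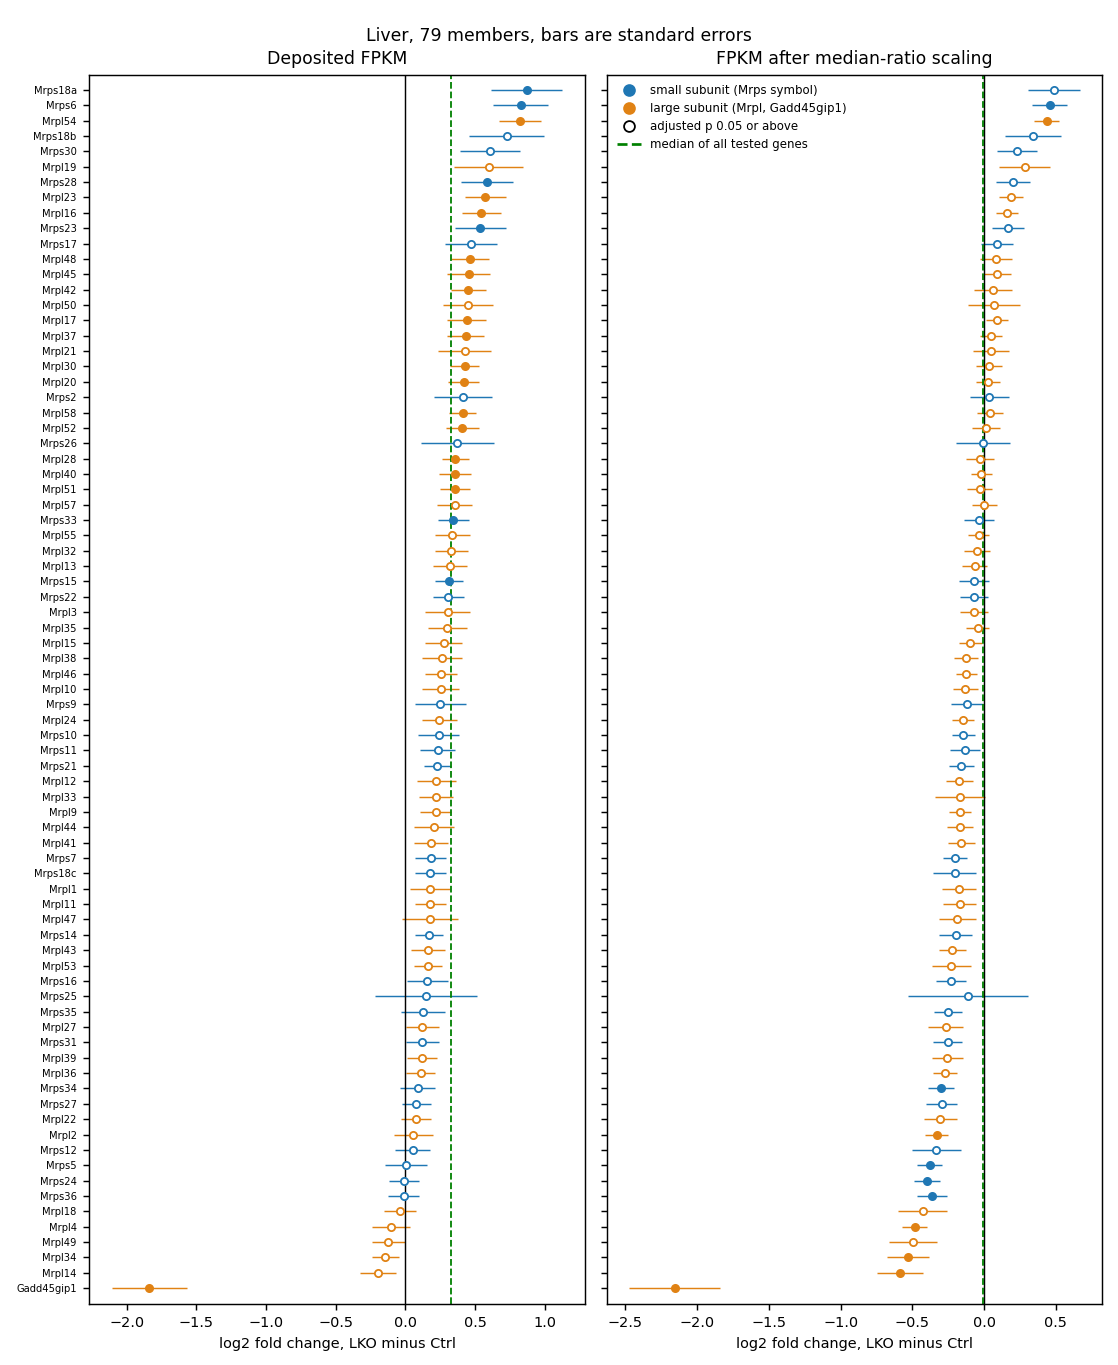
Log2 fold change in liver (horizontal axis, LKO minus Ctrl) with its standard error for each of the 79 members, in the same order in both panels, on deposited FPKM (left) and after median-ratio scaling (right). Blue is the small and orange the large subunit, filled points had an adjusted p below 0.05, and the dashed line is the median of all tested genes (0.33 on the left and -0.01 on the right), which most members lie below on either scale.

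Mrpl54, a large subunit protein found in mitochondrial but not bacterial ribosomes, rose in liver. Its FPKM was 26.3, 24.1 and 24.8 in Ctrl and 37.3, 43.9 and 55.8 in LKO, without overlap. The log2 fold change was 0.82 ± 0.15 (SE, adjusted p = 0.00750), and 0.43 ± 0.09 with median-ratio scaling (adjusted p = 0.0129). Mrpl54 and Gadd45gip1 were called in all 13 alternatives tried for liver, and no other member was. Mrps6, the homolog of bacterial S6 in the small subunit, also rose. It had 9.73, 9.53 and 9.43 FPKM in Ctrl and 12.7, 19.4 and 22.6 in LKO. The change was 0.83 ± 0.20 on the deposited scale (adjusted p = 0.0170) and 0.46 ± 0.12 with median-ratio scaling (adjusted p = 0.0324), and 9 of the 13 alternatives called it. Mrps6 shares 305 exonic bases with Gm49711 on the same strand.

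The Mrps18 paralogs, 3 genes that descend from one bacterial S18 gene, had different values in liver. Mrps18a, whose protein is part of the large subunit by structure in spite of its symbol, had 21.9, 19.9 and 22.2 FPKM in Ctrl and 26.1, 42.1 and 57.3 in LKO. It had the highest log2 fold change of any member (0.87 ± 0.26, adjusted p = 0.0316), and its change of 0.48 ± 0.18 after median-ratio scaling did not pass (adjusted p = 0.0823). Mrps18b had 34.1, 24.8 and 28.1 FPKM in Ctrl and 32.0, 50.4 and 69.5 in LKO, and its groups overlapped (0.73 ± 0.27, adjusted p = 0.0603). Mrps18c, with means of 29.1 ± 2.70 in Ctrl and 33.1 ± 2.40 in LKO (SD, n = 3), differed by 0.18 ± 0.11 on the deposited scale and by -0.21 ± 0.15 with median-ratio scaling, and neither value passed. The difference between the paralogs was not tested.

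The next members in the order passed on neither the median-ratio nor the quantile scale. Mrps30, a second protein with an Mrps symbol that belongs to the large subunit, had 14.5, 12.3 and 14.2 FPKM in Ctrl and 15.0, 22.7 and 28.2 in LKO (0.61 ± 0.21, adjusted p = 0.0537). Mrps28 (0.59 ± 0.19), Mrpl16 (0.54 ± 0.14) and Mrps23 (0.54 ± 0.18) were called with deposited FPKM, while Mrpl19, at 2.70 ± 0.126 FPKM in Ctrl and 4.86 ± 2.15 in LKO, was not (0.60 ± 0.25, adjusted p = 0.0836). With deposited TPM all 5 were called, with adjusted p of 0.0245 for Mrps30 and 0.0451 for Mrpl19. In Mrps30, Mrps28, Mrpl16, Mrps23 and Mrpl19 the lowest LKO value was that of library 1. After median-ratio scaling their changes ranged from 0.16 to 0.28 and none passed.

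At the other end stood members whose FPKM was about level between the genotypes while the typical gene was higher in LKO mice. Mrpl4, whose bacterial homolog lines the exit tunnel, had 26.1, 21.2 and 23.6 FPKM in Ctrl and 18.7, 23 and 24.2 in LKO. Its change was -0.10 ± 0.13 on the deposited scale (adjusted p = 0.533), and relative to the typical gene it was lower (-0.49 ± 0.09 after median-ratio scaling, adjusted p = 0.0103). Mrpl34 had 35.9, 33.8 and 35.9 FPKM in Ctrl and 34.4, 30.8 and 30.2 in LKO, and differed by -0.14 ± 0.10 and -0.53 ± 0.14 on the deposited and median-ratio scales, with adjusted p of 0.255 and 0.0339. Mrps24, the homolog of bacterial S3, had 35.9, 32.9 and 31.3 FPKM in Ctrl and 31.2, 32.0 and 36.1 in LKO. Mrps5, the homolog of S5, had 27.4, 23.7 and 25.1 FPKM in Ctrl and 21.2, 24.8 and 31.3 in LKO. The FPKM groups of both overlapped, and the deposited changes of Mrps24 (-0.01 ± 0.11) and Mrps5 (0.00 ± 0.15) became -0.40 ± 0.09 (adjusted p = 0.0183) and -0.38 ± 0.09 (adjusted p = 0.0206) after median-ratio scaling.

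Mrps36 is known as a subunit of the 2-oxoglutarate dehydrogenase complex rather than of the ribosome. Its liver FPKM was 7.90, 7.08 and 8.61 in Ctrl and 7.51, 7.82 and 7.99 in LKO. The change was -0.01 ± 0.11 (adjusted p = 0.940) on the deposited scale and -0.36 ± 0.10 with median-ratio scaling (adjusted p = 0.0391). Mrps24, Mrps36, Mrpl4, Mrps5, Mrpl34 and Gadd45gip1 were the 6 members called lower with both median-ratio and quantile scaling, and Gadd45gip1 alone of these was also called lower on the deposited scale. Mrpl14, which lies at the subunit interface, had 67.5, 61.0 and 51.4 FPKM in Ctrl and 56.3, 48.2 and 51.8 in LKO, and its change of -0.19 ± 0.13 became -0.58 ± 0.16 after median-ratio scaling (adjusted p = 0.0345), where Mrpl2 (-0.33 ± 0.08) and Mrps34 (-0.30 ± 0.09) were also called lower. Mrpl49 (-0.12 ± 0.12), Mrpl18 (-0.04 ± 0.12) and Mrps12 (0.05 ± 0.13) passed on neither scale.

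CRIF1's neighbours at the polypeptide exit site, where the new chain leaves the large subunit, were mixed. Of the 7 genes listed there, 3 were called higher and Gadd45gip1 lower on the deposited scale, where 38.3% and 5.49% of all genes were, with a median of 0.24. Mrpl23 had 26.6, 24.5 and 24.8 FPKM in Ctrl and 30.8, 41.1 and 43.7 in LKO (0.57 ± 0.14, adjusted p = 0.0200). Mrpl45, which anchors the ribosome to the inner membrane (0.46 ± 0.15, adjusted p = 0.0478), and Mrpl17 (0.44 ± 0.14, adjusted p = 0.0411) were also called. Mrpl24 (0.24 ± 0.13), Mrpl47 (0.18 ± 0.20) and Mrpl22 (0.07 ± 0.11) were not, and all 3 turned negative after median-ratio scaling, where Gadd45gip1 was the only called gene of the 7. The L7/L12 stalk recruits translation factors. Its members Mrpl10, Mrpl11 and Mrpl12 lay between 0.18 and 0.25, with none called, and between -0.17 and -0.13 with median-ratio scaling. The central protuberance holds the structural tRNA of the large subunit. There Mrpl48 (0.46 ± 0.14, adjusted p = 0.0326) and Mrpl40 (0.36 ± 0.11, adjusted p = 0.0401) were called higher on the deposited scale alone. Mrpl48 shares 708 exonic bases with Rab6a on the opposite strand, Mrpl47 shares 616 with Ndufb5 (69.6 FPKM in Ctrl liver, against 9.47 for Mrpl47) and Mrpl24 shares 594 with Rrnad1. Mrpl14, Mrpl18, Mrpl19, Mrpl46, Mrpl49, Mrps30 and Mrps34 share between 91 and 1962 bases with a gene on the opposite strand. The library kit did not mark strand, so reads from such shared bases cannot be assigned to one gene of the pair. Mrpl38 (0.26 ± 0.14) and Mrpl46 (0.25 ± 0.12) passed on neither scale.

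Members listed as specific to mitochondrial ribosomes, a list that held Mrps18a and Mrps18b although they descend from the bacterial S18 gene, were called on the deposited scale in 13 of 32 cases (40.6%, 12 of them higher, median 0.35), and the members listed as homologs of bacterial ribosomal proteins in 9 of 46 cases (19.6%, all higher, median 0.24), beside 43.8% of all genes. After median-ratio scaling the counts were 3 of 32 (9.38%, median -0.03) and 7 of 46 (15.2%, median -0.15), beside 32.2% of all genes. The difference between these groups was not tested.

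Small and large subunit members were then set side by side. On the deposited scale 6 of 29 small subunit members were called, all higher (20.7%, median 0.23), and 16 of 50 large subunit members, 15 of them higher (32%, median 0.27), beside 43.8% of all genes. After median-ratio scaling the medians were -0.13 and -0.11. The mean log2(FPKM + 1) of the small subunit minus that of the large subunit was -0.10, -0.12 and -0.11 in the Ctrl libraries and -0.11, -0.03 and 0.01 in the LKO libraries. The groups overlapped, and the LKO mean exceeded the Ctrl mean by 0.07, with an SD of 0.01 among Ctrl and 0.06 among LKO libraries. The overlap came from LKO library 1. Without it the difference was 0.10, and without LKO library 3 it was 0.04. Without Gadd45gip1 the shift was 0.02, and with Mrps30 and Mrps18a moved to the large subunit and Mrps36 left out it was also 0.02. In the other tissues the shift was 0.02 in iWAT, -0.01 in GM and -0.02 in Hypothalamus. The summed FPKM of all members was 1907 ± 137 in Ctrl and 2322 ± 256 in LKO livers (SD, n = 3), which was 0.350% ± 0.022 and 0.458% ± 0.053 of all FPKM.

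**Figure D3:**
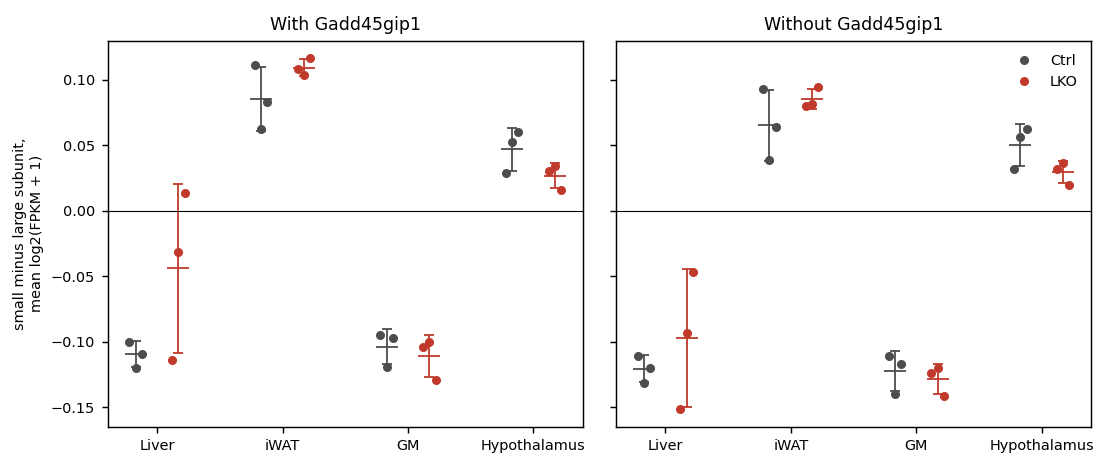
Mean log2(FPKM + 1) of the small subunit members minus that of the large subunit members (vertical axis) in each library of the 4 tissues, with (left) and without (right) Gadd45gip1, and bars for the mean and SD of 3 libraries. In liver 1 LKO library, at -0.11, lies within the Ctrl range of -0.12 to -0.10, and the other two, at -0.03 and 0.01, lie above it.

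Genes that work beside the mitoribosome were set next to the members as lists, whose counts are read against 43.8% of all genes called on the deposited scale and 32.2% with median-ratio scaling. Among 40 assembly and translation factors in liver, 7 were called, all higher (17.5%, median 0.27), and after median-ratio scaling 1 was called higher and 5 lower (15%, median -0.10). Mettl15, which methylates mitochondrial ribosomal RNA, was 1.36 ± 0.06 FPKM in Ctrl and 4.13 ± 1.58 in LKO and was called on the deposited (1.07 ± 0.22, adjusted p = 0.0106) and median-ratio scales (0.79, adjusted p = 0.0122). Ddx28, a helicase of large subunit assembly (1.61 ± 0.52), and Fastkd2, which binds the large ribosomal RNA (0.64 ± 0.22), were called on the deposited scale alone. Mitochondrial aminoacyl-tRNA synthetases, which charge the tRNAs for this ribosome, had 5 of 19 called higher (26.3%, median 0.18; after median-ratio scaling 1 higher and 4 lower, 26.3%, median -0.09), led by Tars2 (0.75 ± 0.23), Wars2 (0.74 ± 0.18) and Iars2 (0.64 ± 0.15). Of these 3 genes Wars2 was also called after median-ratio scaling (0.49, adjusted p = 0.0249). Complex I subunits encoded in the nucleus, which assemble with products of this ribosome, had 3 of 37 called higher on the deposited scale (8.11%, median 0.13), among them Ndufa10 (0.53 ± 0.13). After median-ratio scaling 8 were called lower and 0 higher (21.6%, beside 32.2% of all genes, with a median of -0.27).

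Proteins of the cytosolic ribosome, which translates nuclear-encoded mRNA, were set beside the members as well. Of 82 cytosolic ribosomal protein genes tested, 66 were called (80.5%, beside 43.8% of all genes), all higher, with a median of 0.65. After median-ratio scaling 12 were called higher and 1 lower (15.9%, beside 32.2%), with a median of 0.26. Rpl22l1 went from 44.7 ± 2.67 to 99.2 ± 25.5 FPKM (1.10 ± 0.18, adjusted p = 0.00535), and Rps12 from 282.9 ± 20.2 to 665 ± 246. Relative to the median gene the mitoribosomal members stood at -0.08 and the cytosolic ribosomal proteins at 0.32. These lists were not tested against each other. Mitoribosomal proteins with other symbols were read as well. Dap3 (0.56 ± 0.14, adjusted p = 0.0201) and Ptcd3 (0.48 ± 0.16, adjusted p = 0.0455), both of the small subunit, were called higher on the deposited scale alone. Aurkaip1, at 0.14 ± 0.12 on the deposited scale, was called lower after median-ratio scaling (-0.25, adjusted p = 0.0442), and Chchd1 (0.26 ± 0.14) passed on neither.

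**Figure D4:**
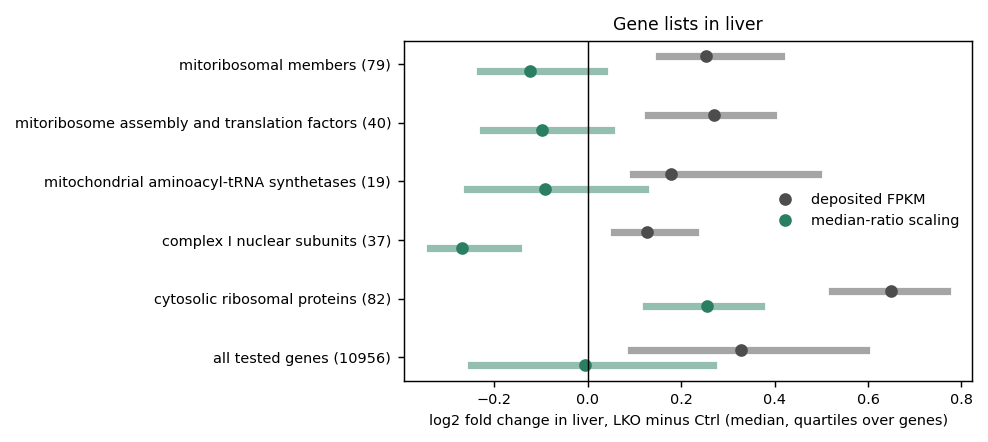
Median log2 fold change in liver (points, horizontal axis, LKO minus Ctrl) and its quartiles over genes (thick bars) for each gene list, with the number of tested genes in brackets, on deposited FPKM (grey) and after median-ratio scaling (green). The mitoribosomal members stand at 0.25 and -0.12, and the cytosolic ribosomal proteins at 0.65 and 0.26.

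Promoter sequences were read for 69 of the 79 members from the RefSeq table for GRCm38.p6, which covers 250 bases before to 50 after each gene start. Mrpl54, Mrpl4 and Gadd45gip1 had no entry. Some genes had several starts, and a gene was counted if any of its windows held a match. Both strands were searched for letters known from regulators of nuclear genes for mitochondria. The NRF1 letters GCATGCGC were found in 8 members (11.6%, against 3.05% of all 27025 genes in the table), the ETS letters CCGGAAGT in 12 (17.4% against 4.31%) and the YY1 letters AAGATGGCG in 8 (11.6% against 1.64%). At least one of the 3 was found in 26 members (37.7% against 8.47%). The letters TGATGCAA, a site of ATF4 and CHOP dimers, were found in no member and in 1.03% of all genes. A match is a description of the letters in this window. The median log2 fold change in liver was 0.24 with and 0.25 without the NRF1 letters, 0.26 and 0.25 for the ETS letters, and 0.27 and 0.25 for the YY1 letters. The windows below, 30 bases each with the matched letters in capitals, are shown for named members, so that the 3 kinds of site and the different sites of the Mrps18 paralogs can be compared.
Mrps18a, chr17:46111005-46111034, plus strand, YY1: ggtgcgttccAAGATGGCGgccctcagggc
Mrps18b, chr17:35916645-35916674, minus strand, NRF1: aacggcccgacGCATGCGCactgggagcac
Mrps18b, chr17:35916394-35916423, minus strand, NRF1: gcgtgtcccgaGCATGCGCagtcgctcttc
Mrps18c, chr5:100798591-100798620, plus strand, ETS: cgggtcacgtgACTTCCGGcccgggaagcg
Mrps24, chr11:5707652-5707681, minus strand, YY1: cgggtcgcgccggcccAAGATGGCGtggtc
Mrpl10, chr11:97041437-97041466, plus strand, NRF1: cccagctccacGCATGCGCatagcggccct
Mrpl17, chr7:105811080-105811109, minus strand, NRF1: gccgagttactGCGCATGCgtcctctgaga
Mrpl22, chr11:58171620-58171649, plus strand, NRF1: ggcctcggactGCGCATGCgtatagtcagc
Mrpl42, chr10:95501903-95501932, minus strand, YY1: agattgaagcAAGATGGCGagcgcgcggtg
The 3 paralogs each held a different kind of match. Mrpl17, which was called higher in liver on the deposited scale, and Mrpl22, which was not, held the NRF1 letters within 33 bases before their starts.

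In iWAT, GM and Hypothalamus no member was called. In iWAT 0% of the 12288 genes tested were called and 15% had an unadjusted limma p below 0.05, as did 2 members. Mrps26 was 46.8, 42.5 and 43.5 FPKM in Ctrl and 37.6, 38.3 and 37.2 in LKO, without overlap (-0.23 ± 0.07, adjusted p = 0.205), and Mrpl22 differed by -0.29 ± 0.10 (adjusted p = 0.267). In GM 0% of 10877 genes were called and 6.83% had an unadjusted p below 0.05, as did 4 members, the furthest of which was Mrpl20 (-0.24 ± 0.09, adjusted p = 0.676), followed by Mrpl40 (-0.16 ± 0.07) and Mrps18c (-0.15 ± 0.06). In Hypothalamus 3 of 13828 genes were called (0.0217%), 3.72% had an unadjusted p below 0.05, and 0 members did. The member medians were -0.04, -0.03 and -0.05, beside -0.01, -0.03 and -0.01 for all genes. No alternative called a member in these 3 tissues.

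Gadd45gip1 itself overlapped between the genotypes outside the liver. In iWAT it was 16.0, 11.6 and 13.2 FPKM in Ctrl and 10.4, 11.9 and 12 in LKO (-0.22 ± 0.12, adjusted p = 0.446). In GM it was 15.9, 13.5 and 12.9 in Ctrl and 13.2, 12.7 and 17.4 in LKO (0.02 ± 0.13, adjusted p = 0.987), a difference whose sign changed when a single library was left out. In Hypothalamus it was 25.1, 25.9 and 28.0 in Ctrl and 25.8, 23.2 and 26.4 in LKO (-0.06 ± 0.07, adjusted p = 0.999).

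Whether the LKO effect differed between tissues was tested over all 24 libraries with an interaction F test in limma. On the deposited scale 26 of 79 members passed (32.9%), about the share of all 15849 genes (33.5%). The smallest adjusted p belonged to Gadd45gip1 (0.000107), the gene disrupted in LKO hepatocytes by design. Mrpl54 (0.000993), Mrpl48 (0.00197), Mrps6 (0.00433) and Mrpl23 (0.00692) followed. The log2 fold change of Mrpl54 was 0.82 in liver and -0.04, -0.12 and -0.13 in iWAT, GM and Hypothalamus, and that of Mrpl48 was 0.46 against -0.12, -0.14 and -0.15. Mrps6 stood at 0.83 against 0.22, -0.05 and -0.07, and Mrpl23 at 0.57 against -0.15, 0.06 and -0.16. After median-ratio scaling 4 members passed, Gadd45gip1, Mrpl4, Mrps36 and Mrps5, against 23.6% of all genes, and Gadd45gip1 was the 1 member that passed on both scales. Without liver Ctrl library 2, Ctrl library 3, LKO library 2 or LKO library 3 the share of members on the deposited scale was 13.9%, 12.7%, 19% or 12.7% (11, 10, 15 or 10 members), beside 25%, 24.5%, 24.6% or 22.2% of all genes. Without LKO library 1 or Ctrl library 1 it was 49.4% or 34.2%, beside 45.2% or 27.6%, and with deposited TPM it was 46.8% beside 38.3%.

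Levels of the members in Ctrl mice showed how they are distributed among tissues. FPKM is per length and so can be compared between genes. Mrpl12, of the L7/L12 stalk, was among the 3 highest members in all 4 tissues, with 128 ± 5.94 FPKM in GM, 112 ± 9.91 in liver, 111 ± 22.4 in iWAT and 64.9 ± 7.76 in Hypothalamus (SD, n = 3). Mrpl52 (75.3 ± 7.21) and Mrpl14 (60.0 ± 8.12) followed it in liver, Mrps21 (94.6 ± 6.28) and Mrpl30 (89.2 ± 8.91) in iWAT, while Mrpl42 (222 ± 11.8) led and Mrps21 (113 ± 1.02) followed Mrpl12 in GM, and Mrpl52 (67.9 ± 10.4) and Mrpl20 (58.7 ± 5.15) accompanied it in Hypothalamus. The means and SD of Mrpl52 and Mrpl12 in Hypothalamus overlapped. Mrpl19 was among the 3 lowest in every tissue, at 2.70 to 5.32 FPKM. Mrps25 was among them in liver (2.44 ± 1.16), iWAT (6.32 ± 2.31) and GM (4.45 ± 1.05), and shares 4590 exonic bases with Nr2c2 on the opposite strand. Mrpl35 (5.64 ± 0.45) completed the lowest 3 in liver, Mrpl1 in iWAT (5.77 ± 0.35), Mrpl17 in GM (5.97 ± 0.02), and Mrpl1 (5.28 ± 0.35) and Mrpl17 (5.43 ± 0.63) in Hypothalamus. The order of the 79 members was alike between tissues, with Spearman correlations of mean FPKM across genes from 0.73 (liver and Hypothalamus) to 0.87 (iWAT and GM). Genes are not independent replicates, and each tissue's mean rests on 3 libraries.

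Among Ctrl tissues 75 of 79 members differed in a limma F test, against 99% of the 15320 genes tested. The exceptions were Mrpl50, Mrps10, Mrps5 and Mrps27, and after median-ratio scaling all 79 passed. On the deposited scale the members had a median range between tissue means of 0.80 (log2) beside 1.99 for all tested genes. The latter can include genes that reach 1 FPKM in 1 tissue alone, while every member was tested in all 4. With median-ratio scaling the range of Mrpl50 went from 0.27 to 1.26 and that of Mrps25 from 2.30 to 1.35. Mrps6 had the widest range on the deposited scale (2.59), while after median-ratio scaling its range was 1.69 and that of Mrpl42, at 3.38, was the widest. It was 9.73, 9.53 and 9.43 FPKM in liver, 15.8, 15.0 and 15.4 in GM, 36.9, 38.1 and 41.3 in Hypothalamus and 70.5, 56.4 and 61.4 in iWAT. All 6 pairs of tissues differed for Mrps6, and the smallest difference was between liver and GM (-0.63, adjusted p = 1.49e-05). The liver of LKO mice, at 18.2 ± 5.08 FPKM, remained below the iWAT and Hypothalamus levels.

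Mrpl42 stood apart in muscle, with 229, 229 and 209 FPKM in GM, 76.6, 64.8 and 60.6 in iWAT, 49.5, 37.4 and 41.2 in liver and 44.7, 38.7 and 42.2 in Hypothalamus. On the deposited scale the last 2 tissues did not differ beyond their spread (0.02, adjusted p = 0.865), while after median-ratio scaling the mean log2 level was 6.02 in liver and 4.87 in Hypothalamus. Mrps36 was also highest in muscle (37.2 ± 1.25), ahead of iWAT (23 ± 1.90), Hypothalamus (17.7 ± 1.03) and liver (7.86 ± 0.76), and Mrps28 ran from 59.1 ± 6.73 in GM to 13.9 ± 2.07 in Hypothalamus. Mrps25 was highest in Hypothalamus (15.4 ± 1.41). On the deposited scale its GM and iWAT levels did not differ beyond their spread (adjusted p = 0.166).

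Gadd45gip1 stood at 13.6 ± 1.06 FPKM in liver, 13.6 ± 2.22 in iWAT and 14.1 ± 1.58 in GM, levels that did not differ beyond their spread on the deposited scale (adjusted p of 0.693 to 0.986 for the 3 pairs). It was 26.3 ± 1.48 FPKM in Hypothalamus, 0.91 above liver on the log2 scale (adjusted p = 8.35e-06). This order depended on the scale, since liver was the highest tissue after median-ratio scaling. The same held for the members as a set. On the deposited scale the highest mean was in iWAT for 32 members, GM for 29, Hypothalamus for 15 and liver for 3 (Mrps31, Mrpl38 and Mrps22). After median-ratio scaling it was in GM for 47, liver for 29, Hypothalamus for 2 and iWAT for 1.

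**Figure D5:**
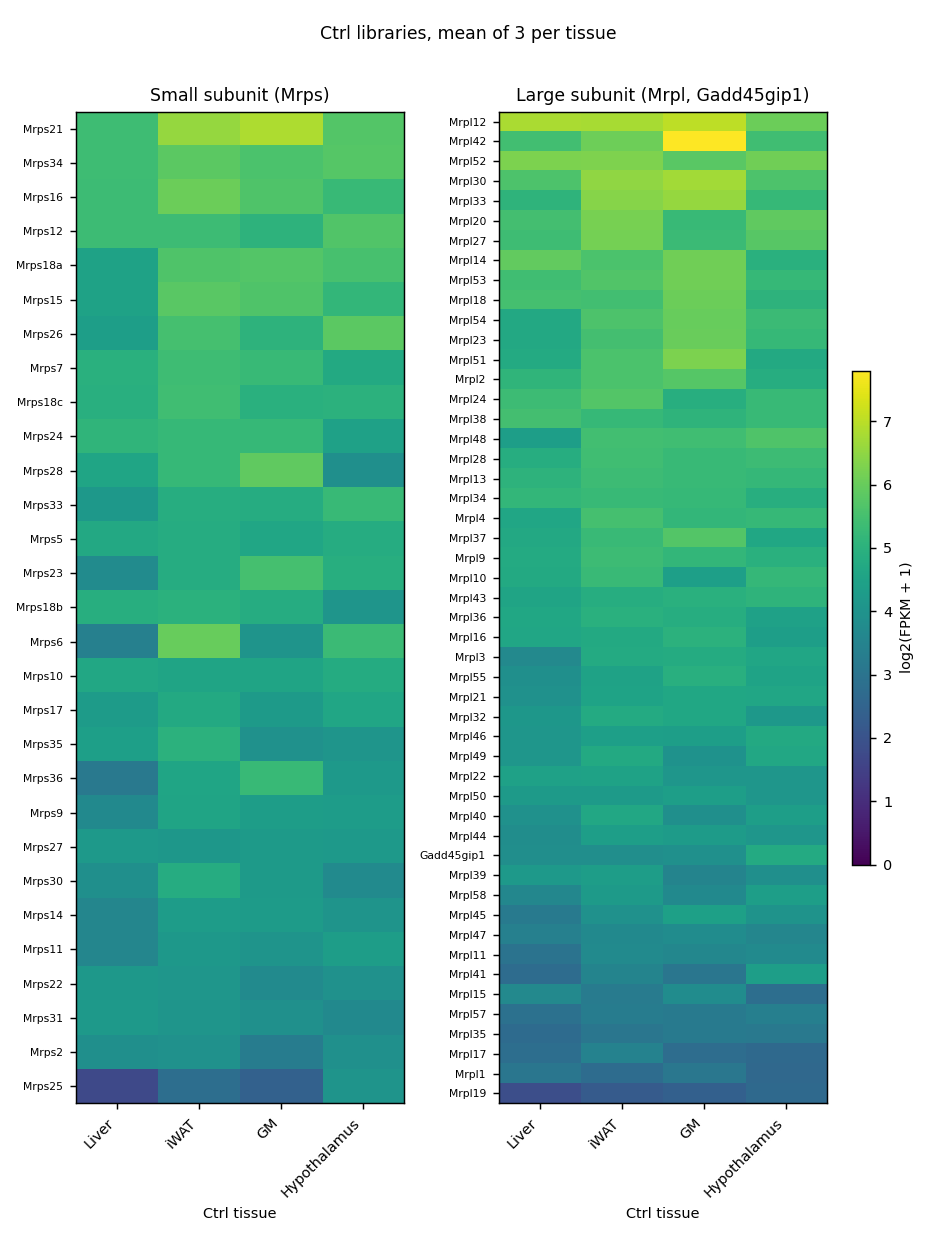
Mean log2(FPKM + 1) over 3 Ctrl libraries (colour) of each small subunit member (left) and each large subunit member with Gadd45gip1 (right), ordered by their mean over the 4 Ctrl tissues. Mrpl42 in GM (222 FPKM) and Mrps6 in iWAT (62.8 FPKM) stand out from their rows.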

How the data were processed

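Per the labels, RNA of liver, iWAT, GM and Hypothalamus was sequenced on HiSeq4000 after TruSeq RNA Library Prep Kit v2, which does not mark strand. The submitters' processing notes name Trimmomatic 0.32, HISAT2 2.0.5 and StringTie 1.3.3b among other tools, and build mm10. The authors deposited FPKM per gene in a table of all 24 libraries, and TPM and coverage per gene for each library. Coverage divided by FPKM gave each library's depth. No counts were used here, so counting error is not in the model. For 151 genes listed at several places, the place with the highest FPKM gave TPM and coverage.

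Fits used limma 3.58.1 (R 4.3.3, trend) per tissue on log2(FPKM + 1), on the 3 Ctrl and 3 LKO libraries, with genes of at least 1 FPKM in at least 3 libraries. The fits were tested on simulated data. An exact permutation test of 3 against 3 libraries cannot go below 0.1, so none was used. The labels do not say that libraries came from separate mice, or which tissues share a mouse, so p-values measure the spread between these libraries. The main fits took the libraries as unpaired. Correlations of same-numbered Ctrl and LKO libraries ranged from -0.135 to 0.354 over the 4 tissues, and those of other pairs from -0.419 to 0.298. In GM the same-numbered ones were 0.354, 0.0499 and 0.163. Whether replicate numbers pair the libraries was thus not settled, and alternatives are given in the closing section. The members and lists were chosen with earlier results of these data known. Named members were Gadd45gip1, the 10 highest and 10 lowest changes in liver, up to 3 per direction with unadjusted p below 0.05 elsewhere, the 5 smallest interaction p-values, the 5 widest ranges and 3 highest and lowest levels in Ctrl tissues, the exit site, stalk, central protuberance and Mrps18 members, Mrps30 and Mrps36, and up to 3 called genes with the largest change of other lists. Mrpl2, Mrps34, Mrps10, Mrps27, Mrpl50, Mrps31 and Mrps22 were named after their values were seen. Exonic overlaps come from GENCODE M21 on the same build, and 24 members share exonic bases with another protein-coding gene. One item is not reported here.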

Additional observations from a re-analysis of the deposited data

Results flagged for a closer look

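Gadd45gip1 was marked because its LKO effect differed between the tissues in the interaction F test (limma adjusted p = 0.000107), with liver at -1.84 and the other tissues between -0.22 and 0.02. LKO mice were made to lose this gene in hepatocytes, so its lower value in liver was set by the design. Mrpl54 was marked by the same test (adjusted p = 0.000993), as were Mrpl48 (adjusted p = 0.00197), Mrps6 (adjusted p = 0.00433) and Mrpl23 (adjusted p = 0.00692). Of these 5 members, Gadd45gip1 alone passed the test after median-ratio scaling.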

How the results depend on the processing

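The depth of 4.45 to 8.09 gigabases and 3 libraries per group limit these results, and counting error is not in the model fitted to FPKM. In liver 22 members were called. The count was 5 with a fold of at least 1.5 (27.4% of all genes), 47 with deposited TPM (58.8%), 11 with median-ratio scaling (32.2%), 8 with quantile normalization (30.1%) and 8 with the replicate block (35.7%). Same-numbered correlations in liver were 0.154, 0.0276 and 0.0359, beside 0.269 for Ctrl library 3 with LKO library 2. The liver count ranged from 2 to 46 when single libraries were left out, and was 30 with median-ratio scaling without LKO library 1, a setting chosen after seeing the data. The member median of 0.25 became -0.12 (median-ratio), -0.0693 (quantile) and -0.11 (median-ratio without LKO library 1). The interaction count of 26 became 4 (median-ratio, 23.6% of all genes) and 5 (quantile, 20.3%), ranged from 10 to 39 without single libraries and was 25 with the replicate block. Counts of 0 members in iWAT, GM and Hypothalamus held in all alternatives run.

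In liver, median-ratio scaling turned the direction of 47 of the 79 members, and quantile normalization that of 41. Among the members named by rule, median-ratio scaling turned Mrps5 (-0.38), Mrps12 (-0.33), Mrpl22 (-0.31), Mrps18c (-0.21), Mrpl47 (-0.19), Mrpl12 (-0.17), Mrpl1 (-0.17), Mrpl11 (-0.17), Mrps21 (-0.16), Mrpl24 (-0.15), Mrpl10 (-0.13), Mrpl38 (-0.13), Mrpl46 (-0.12), Mrps25 (-0.11), Mrpl35 (-0.0461), Mrpl40 (-0.0192) and Mrps26 (-0.0105). Among the same members quantile normalization turned Mrps5 (-0.32), Mrpl22 (-0.27), Mrps25 (-0.23), Mrps12 (-0.23), Mrpl47 (-0.20), Mrpl1 (-0.19), Mrpl11 (-0.19), Mrps18c (-0.13), Mrpl46 (-0.0949), Mrpl35 (-0.0825), Mrpl10 (-0.0693), Mrps21 (-0.0350), Mrpl24 (-0.0146) and Mrpl40 (-0.0127). Of all 79 members, deposited TPM turned Mrps24 (0.11), Mrps36 (0.10), Mrpl18 (0.0815) and Mrpl4 (0.0159). Leaving out single libraries also turned members near 0, and their ranges were -0.0723 to 0.0419 for Mrps24 in liver, -0.14 to 0.13 for Mrps5 in liver, -0.0292 to 0.14 for Mrps12 in liver, -0.0758 to 0.049 for Mrps36 in liver, -0.17 to 0.00277 for Mrpl4 in liver, -0.13 to 0.0259 for Mrpl18 in liver, -0.0411 to 0.36 for Mrpl47 in liver and -0.11 to 0.11 for Gadd45gip1 in GM. The cause was not tested.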
